A study of Mus musculus with 6 samples.

Results

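The TGF-β and BMP pathway genes were examined in HL-1 cells after silencing of the long noncoding RNA Malat1. HL-1 is a contractile line derived from mouse atrial cardiomyocytes. The genes were a list of 52 names that covers ligands, receptors, latency proteins, secreted antagonists, SMAD proteins with their inhibitors, and the ID targets. Of these names, 42 had a row among the 21269 genes of the deposited table, and 39 of the 42 reached the minimum mean of 5 normalized counts and were tested. Mstn, Bmp2, Bmp5, Bmp6, Bmp7, Bmpr1b, Tgfbr2, Nog, Grem1 and Id4 were not analysed here.

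Cells were transfected at 50 nM with locked nucleic acid gapmers, which are short antisense oligonucleotides that direct cleavage of a nuclear or cytoplasmic RNA. One group received a gapmer against Malat1 (LNA Malat1, 3 libraries) and the other a control gapmer (LNA Control, 3 libraries). Transfection took place 24 hours after seeding and cells were collected 48 hours later. Both groups were grown in the same serum-containing Claycomb medium with norepinephrine, and all libraries come from a single cell line. Nothing in the labels states that the libraries of a group came from separate cultures, so the p-values measure the spread between these libraries, which may be technical. The values are the authors' normalized counts, rounded to whole numbers, and the libraries held between 4758777 and 4921406 of them. Malat1 itself was at 5051, 5197 and 4369 normalized counts in LNA Control replicates 1, 2 and 3 and at 2833, 2792 and 2732 in LNA Malat1 replicates 1, 2 and 3, which is a change of -0.80 on the log2 scale (SE 0.07, limma adjusted p = 7.5e-06). Malat1 was therefore at 57.2% of its control mean, a partial depletion, in every LNA Malat1 library. LNA Malat1 replicates 1 and 3 differed by less than the sampling noise of their reads over the 14522 genes that reached 20 reads in both together (chi-square per gene 0.949; 1.10 over the 1754 genes with at least 1600 reads), so they were averaged and counted as 1 sample in each mean ± SD (n = 2). The whole LNA Malat1 group lay closer to that noise than the LNA Control group. Over genes with 20 reads it had 1.01 between replicates 1 and 2 and 1.16 between replicates 2 and 3, whereas LNA Control pairs had 1.77 to 4.18. Over genes with at least 1600 reads these LNA Malat1 pairs had 1.66 and 2.02, beyond that noise, and LNA Control pairs 4.25 to 14.9. The limma tests used all 6 libraries, and the values with replicates 1 and 3 as 1 sample are given where they change a call.

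TGF-β family ligands are secreted dimers that bring together type II and type I receptor kinases at the cell surface. The activated type I receptor phosphorylates receptor-regulated SMADs, SMAD2 and SMAD3 for TGF-βs and activins and SMAD1, SMAD5 and SMAD9 for BMPs, and these enter the nucleus with SMAD4. In the heart, BMP signaling is known for its part in the specification and trabeculation of cardiac muscle, and TGF-β and activin signaling for hypertrophic and fibrotic responses. Only RNA was measured here, not the proteins, their phosphorylation or the activity of the pathway.

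**Figure D1:**
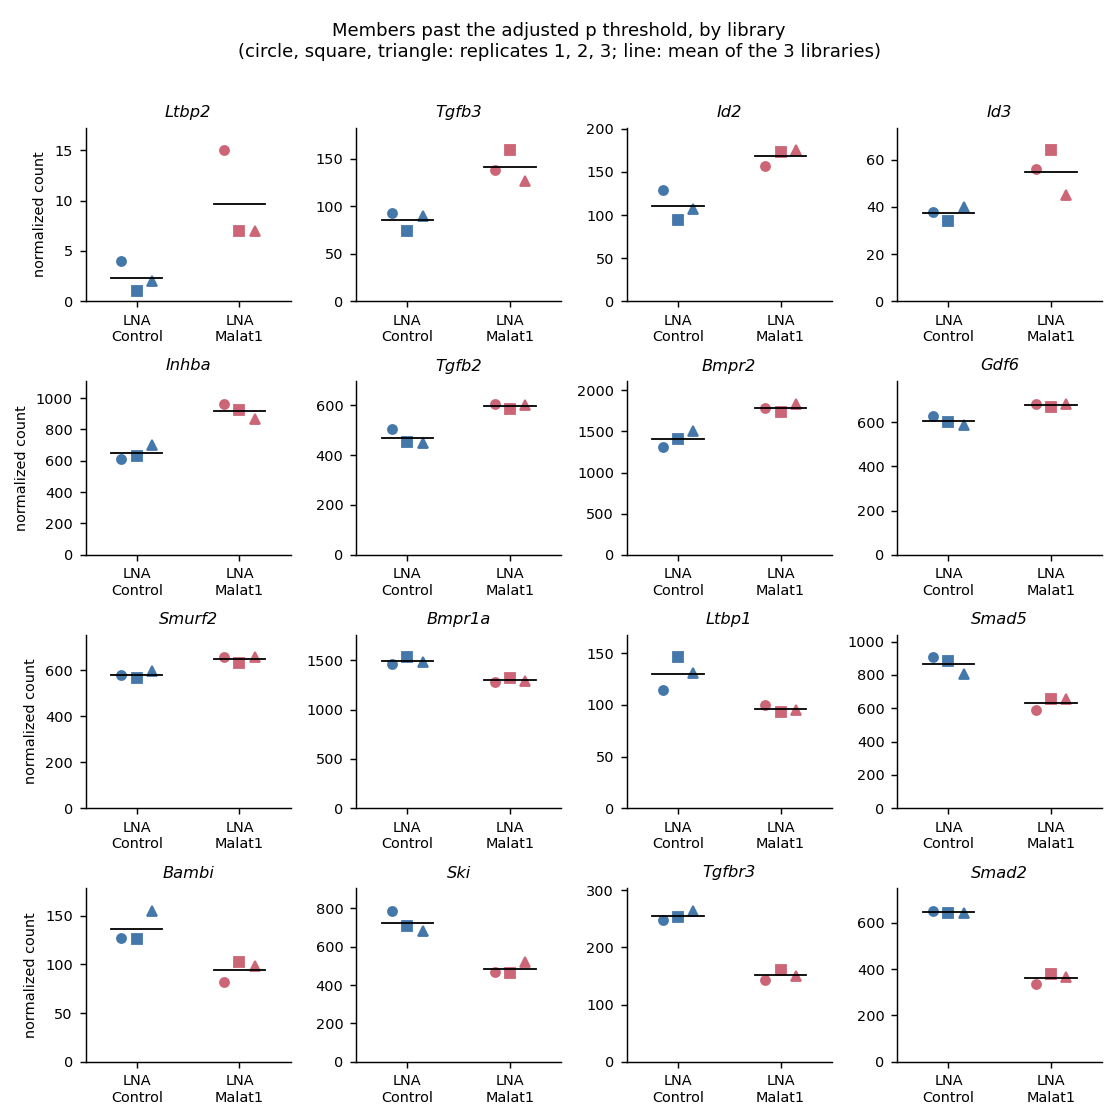
Normalized counts (vertical axes, starting at 0) of the 16 genes that passed the adjusted p threshold, in each of the 3 LNA Control and 3 LNA Malat1 libraries. Symbols mark replicates 1, 2 and 3, horizontal lines the mean of the 3 libraries, and the libraries of the groups do not overlap in these panels, whose genes were picked for passing the threshold. Over all genes, 20.5% had every LNA Malat1 library above every LNA Control library and 20.8% had every one below.

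Silencing of Malat1 was accompanied by small changes on both sides of the pathway. The ligand transcripts Tgfb2, Tgfb3, Inhba and Gdf6 and the targets Id2 and Id3 rose, whereas Smad2, Smad5, the corepressor Ski and the coreceptor Tgfbr3 fell. The increases of Gdf6 and Id3 did not pass in some of the fits described below. Of the 39 genes tested, 9 were higher and 7 were lower with an adjusted p up to 0.05, against 14.3% and 14.0% of all 15650 genes tested. With the additional fold change minimum of 1.5, 3 were upregulated (Tgfb3, Id2 and Ltbp2) and 2 were downregulated (Smad2 and Tgfbr3), against 8.0% and 2.92% of all genes. Of these, Ltbp2 reached the minimum mean only through the LNA Malat1 libraries, where it was higher. The other 11 genes past the p threshold changed by less than 1.5-fold. The median log2 fold change of the 39 genes was 0.12, and that of all genes was 0.02. The median size of the change, without its sign, was 0.21 in the list and 0.19 over all genes.

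Each of the 9 TGF-β, activin, GDF and BMP ligands of the list that were tested had a positive log2 fold change, with a median of 0.35. Of these, 4 were higher past the p threshold and none was lower by the limma test, against 14.3% and 14.0% of all genes. The other 5 ligands did not pass the test at an adjusted p of 0.05. A positive sign was found in 52.8% of all genes. The sign of Bmp10 turned under quantile normalization (log2 fold change -0.16) and without LNA Malat1 replicate 3 (-0.03), so the shared sign holds for the other 8 under all the alternatives run. Inhbb, Bmp4 and Bmp10 had means under 50 normalized counts, a range in which the median over all genes was itself 0.31.

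Tgfb3, the isoform best known for its role in fusion of the palate, was at 93, 74 and 90 normalized counts in the LNA Control libraries and at 138, 159 and 127 in the LNA Malat1 libraries. The lowest LNA Malat1 library lay above the highest LNA Control library, with means of 85.7 ± 10.2 (SD, n = 3) and 145.8 ± 18.7 (SD, n = 2). The difference was 0.72 on the log2 scale (SE 0.12, limma adjusted p = 0.0007). Tgfb2, the most abundant isoform per kilobase of exon, was at 507, 455 and 448 in LNA Control, against 606, 587 and 600 in LNA Malat1, a smaller but tighter increase (log2 fold change 0.35, SE 0.06, limma adjusted p = 0.00086). Tgfb1, the isoform most associated with fibrosis, was at 71, 38 and 49 in LNA Control, against 61, 55 and 66 in LNA Malat1. Its groups overlapped and the difference did not pass the test (log2 fold change 0.24, 95% interval -0.19 to 0.67).

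Among the 3 isoforms, Tgfb3 took 20.3% to 23.4% of the normalized counts per kilobase in LNA Control, against 24.3% to 29.5% in LNA Malat1. The share of Tgfb2 went from 67.8% to 72.8% in LNA Control to 63.6% to 67.2% in LNA Malat1. The groups did not overlap for either isoform. Tgfb1 held 6.85% to 10.9% in all 6 libraries.

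Inhba, which encodes the subunit of activin A, was at 610, 632 and 700 normalized counts in LNA Control, against 963, 925 and 868 in LNA Malat1. All LNA Malat1 libraries were higher, and the increase of 0.51 on the log2 scale (SE 0.06, limma adjusted p = 8.9e-05) had the lowest adjusted p among the increases of the list. Gdf6, a BMP-like growth and differentiation factor, was at 630, 601 and 586 in LNA Control, against 681, 667 and 683 in LNA Malat1. Its increase was small (log2 fold change 0.16, SE 0.05, limma adjusted p = 0.033) and did not pass the threshold with LNA Malat1 replicates 1 and 3 as 1 sample (adjusted p = 0.098). Gdf6 passed in only 1 of the 6 fits that left out a library (highest limma adjusted p = 0.11). It did not pass under median-of-ratios scaling (0.065). Gdf11 had 128 to 150 and 155 to 163 normalized counts, without overlap, yet did not pass the test (log2 fold change 0.17, 95% interval -0.01 to 0.36).

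Bmp4, a main BMP of the developing heart, was at 14, 10 and 10 normalized counts in LNA Control, against 22, 16 and 18 in LNA Malat1. The groups did not overlap, but the difference did not pass the threshold (log2 fold change 0.68, SE 0.27, limma adjusted p = 0.078). Bmp10, an atrial and trabecular BMP in the heart, and Inhbb, which encodes the subunit of activin B, were also scarce, with 10 to 21 and 3 to 16 normalized counts over the 6 libraries and overlapping groups. Bmp1 is a metalloproteinase that processes matrix proteins and BMP antagonists rather than a ligand. It was at 141 to 182 in LNA Control, against 159 to 173 in LNA Malat1.

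**Figure D2:**
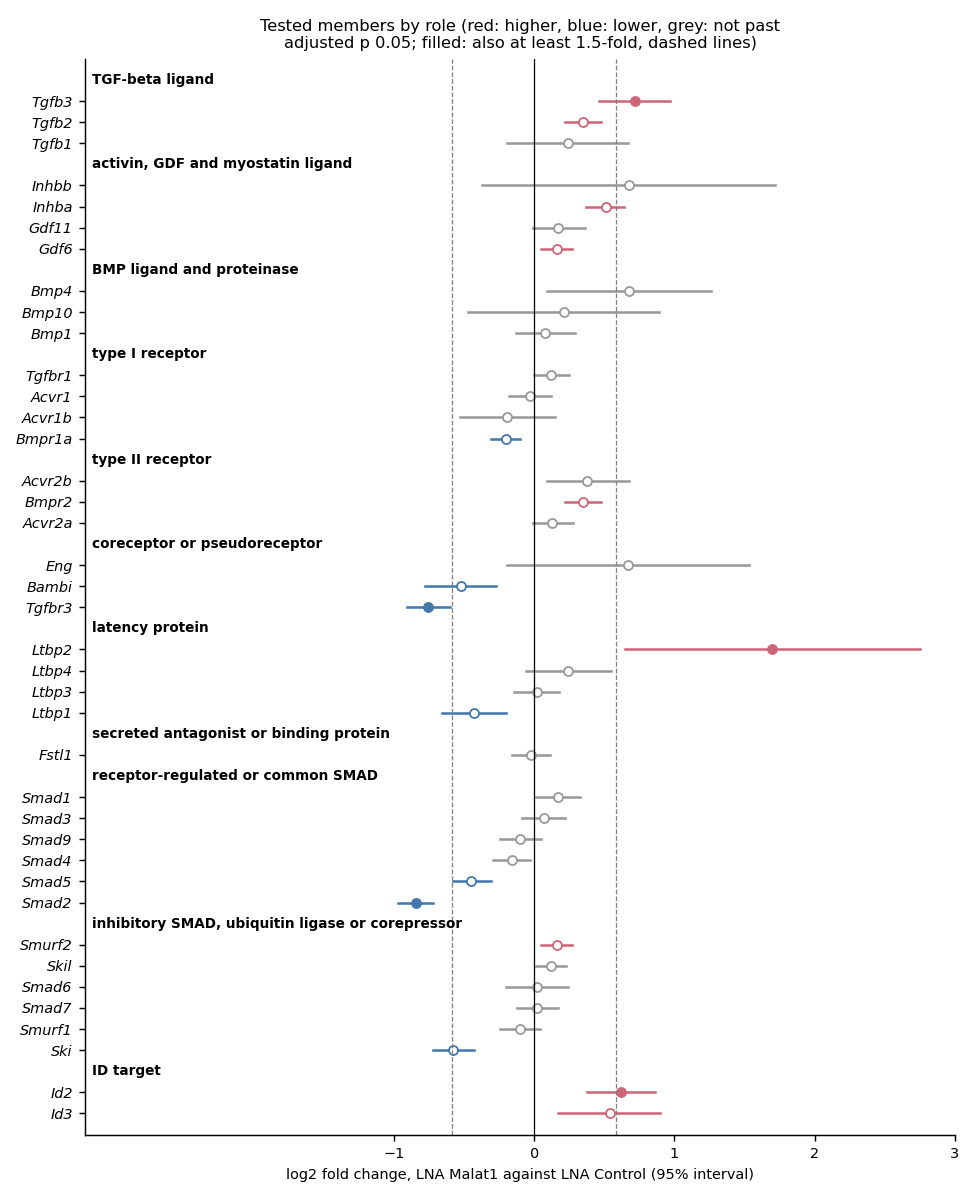
Log2 fold change of LNA Malat1 against LNA Control (horizontal axis) with its 95% interval for the 39 genes tested, grouped by role. Red and blue mark genes higher and lower with an adjusted p up to 0.05, filled points those that also passed 1.5-fold (dashed lines), and grey the 23 genes that did not pass; ligands lie to the right of 0 and SMADs on both sides.

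Among the 7 type I and type II receptors tested, Bmpr2 rose and Bmpr1a fell, where 14.3% and 14.0% of all genes did. Both bind BMPs. Bmpr2, the type II BMP receptor, was at 1309, 1405 and 1503 normalized counts in LNA Control, against 1788, 1733 and 1835 in LNA Malat1, higher in every library (log2 fold change 0.35, SE 0.06, limma adjusted p = 0.001). Bmpr1a, the type I BMP receptor with the highest level per kilobase of any receptor of the list, was at 1469, 1531 and 1480 in LNA Control, against 1285, 1318 and 1288 in LNA Malat1. It was lower in every library, by a small amount (log2 fold change -0.20, SE 0.05, limma adjusted p = 0.0087), and it did not pass the p threshold without LNA Malat1 replicate 1 (adjusted p = 0.055).

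The other 5 type I and type II receptors of the list that were tested did not pass the threshold. Tgfbr1, the type I TGF-β receptor, was at 454 to 491 in LNA Control, against 499 to 553 in LNA Malat1 (log2 fold change 0.12, adjusted p = 0.14 by limma). Acvr2b, a type II activin receptor, was just outside the threshold, with 58 to 74 and 74 to 97 normalized counts (log2 fold change 0.38, adjusted p = 0.054 by limma). Acvr2a, the other type II activin receptor, had 358 to 417 and 403 to 423. The type I receptors Acvr1 and Acvr1b had log2 fold changes of -0.03 and -0.19 with overlapping groups. Acvrl1, a type I receptor of endothelial cells, was listed at 0 in each LNA Control library and at 3, 4 and 5 in LNA Malat1, below the minimum mean, and was not tested.

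Of the 3 coreceptors and pseudoreceptors tested, 2 fell past the p threshold, where 14.0% of all genes did. Tgfbr3, or betaglycan, presents TGF-βs, TGF-β2 in particular, to the signaling receptors, and it was at 249, 254 and 264 normalized counts in LNA Control, against 143, 160 and 150 in LNA Malat1. The LNA Malat1 libraries all lay far below the LNA Control libraries, at 59.9% of the control mean (log2 fold change -0.76, SE 0.07, limma adjusted p = 1e-05). Bambi, a pseudoreceptor that lacks the kinase domain and dampens signaling, was at 127, 126 and 155 in LNA Control, against 82, 103 and 98 in LNA Malat1, a decrease under the fold change minimum (log2 fold change -0.52, SE 0.12, limma adjusted p = 0.0052). Eng, an endothelial coreceptor, had 3 to 9 and 9 to 11 normalized counts, with groups that met at 9, and did not pass the test (log2 fold change 0.67, 95% interval -0.19 to 1.53).

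The latent TGF-β binding proteins hold secreted TGF-β in the matrix. Ltbp1 was at 114, 146 and 131 normalized counts in LNA Control, against 100, 93 and 95 in LNA Malat1, lower in every library (log2 fold change -0.43, SE 0.11, limma adjusted p = 0.009). Without LNA Control replicate 2 its adjusted p was 0.052. Ltbp2, a matrix protein of the family that does not bind TGF-β, was at 4, 1 and 2 in LNA Control, against 15, 7 and 7 in LNA Malat1. It passed the minimum mean only through the group in which it was higher, and its difference of 1.70 on the log2 scale (SE 0.48, limma adjusted p = 0.02) rests on counts that few. It did not pass with LNA Malat1 replicates 1 and 3 as 1 sample (adjusted p = 0.063), without LNA Malat1 replicate 1 (0.12) or without LNA Control replicate 2 (0.069). Under quantile normalization Ltbp2 did not pass either (limma adjusted p = 0.11). Ltbp3, which held 71.6% to 74.2% of the family's counts per kilobase in the 6 libraries, had a log2 fold change of 0.02 (95% interval -0.14 to 0.18), and Ltbp4 had one of 0.24 (95% interval -0.06 to 0.55).

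Of the 4 secreted antagonists and binding proteins of the list, 2 had a row and 1 was tested. Fstl1, a follistatin-like glycoprotein with the highest level per kilobase of the list, was at 1526 to 1760 normalized counts in LNA Control, against 1628 to 1666 in LNA Malat1, and its log2 fold change of -0.02 had a 95% interval of -0.16 to 0.11. Fst, or follistatin, an activin antagonist, had 0 to 4 normalized counts in the 6 libraries and was not tested.

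Of the 8 SMADs, 2 fell and none rose at an adjusted p of at most 0.05 by limma, where 14.0% and 14.3% of all genes did. Among genes with a mean of at least 50, which all 8 reached, the shares were 19.7% and 12.2%. Smad2, a signal transducer of TGF-βs and activins, was at 651, 644 and 644 normalized counts in LNA Control, against 336, 378 and 367 in LNA Malat1. Both groups were tight and far apart, with LNA Malat1 at 56.4% of the control mean. A change of -0.84 on the log2 scale (SE 0.06, limma adjusted p = 8e-07) was the largest decrease of the list. Smad3, which shares its receptors and much of its sequence, was at 544, 522 and 449 in LNA Control, against 532, 506 and 543 in LNA Malat1, with a log2 fold change of 0.07 (95% interval -0.09 to 0.22). Smad2 therefore made up 43.0% to 47.5% of the Smad2 and Smad3 counts per kilobase in LNA Control, against 28.5% to 32.0% in LNA Malat1.

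In the BMP branch Smad5 was at 905, 885 and 805 normalized counts in LNA Control, against 589, 658 and 655 in LNA Malat1, at 74.0% of the control mean (log2 fold change -0.45, SE 0.06, limma adjusted p = 0.00023). All LNA Malat1 libraries were lower than all LNA Control libraries. Smad1 pointed the other way without passing the test, at 256, 228 and 275 in LNA Control, against 287, 285 and 278 in LNA Malat1 (log2 fold change 0.17, adjusted p = 0.11 by limma). Smad9 had 357 to 409 and 348 to 384. The share of Smad5 among the 3 BMP SMADs per kilobase went from 49.6% to 51.5% in LNA Control to 41.1% to 44.7% in LNA Malat1. Smad4, the partner shared by both branches, was at 519, 510 and 465 in LNA Control, against 436, 441 and 460 in LNA Malat1, just below every control library (log2 fold change -0.16, adjusted p = 0.06 by limma).

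**Figure D3:**
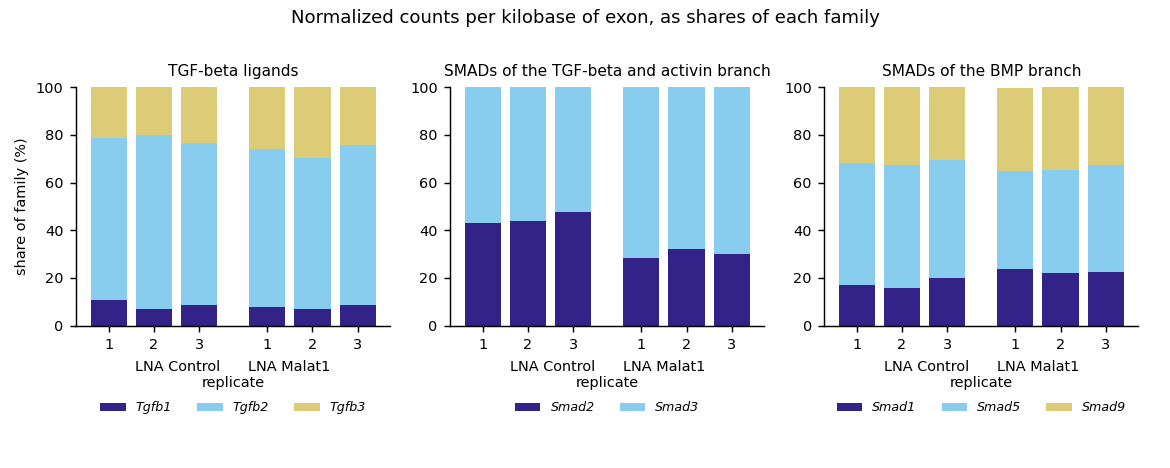
Stacked bars give the share (%, vertical axis from 0 to 100) of each gene in the normalized counts per kilobase of exon of its family, for LNA Control and LNA Malat1 replicates 1 to 3. Smad2 took 43.0% to 47.5% of the Smad2 and Smad3 sum in LNA Control, against 28.5% to 32.0% in LNA Malat1, and Smad5 and Tgfb3 shifted by less.

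The inhibitory SMADs, which are themselves targets of the pathway and feed back on its receptors, did not pass the test (limma adjusted p = 0.9 for Smad6 and 0.82 for Smad7). Smad6, the inhibitor of BMP signaling, had a log2 fold change of 0.02 (95% interval -0.20 to 0.24), and Smad7, which acts on both branches, also had one of 0.02 (95% interval -0.12 to 0.17). Smurf2, a ubiquitin ligase that SMAD7 brings to the receptors, was at 579, 567 and 595 normalized counts in LNA Control, against 656, 631 and 656 in LNA Malat1. Its increase was small (log2 fold change 0.16, SE 0.05, limma adjusted p = 0.033) and did not pass with LNA Malat1 replicates 1 and 3 as 1 sample (adjusted p = 0.1). Smurf2 passed in 2 of the 6 fits that left out a library (highest limma adjusted p = 0.12), and not under median-of-ratios scaling. Smurf1, the related ligase first known for SMAD1 and SMAD5, had 465 to 542 and 445 to 493, with overlap.

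Ski and Skil are related corepressors that bind SMADs at target genes. Ski fell, and was at 787, 706 and 682 normalized counts in LNA Control, against 470, 463 and 521 in LNA Malat1. The groups lay far apart, and the change of -0.58 on the log2 scale (SE 0.07, limma adjusted p = 4.9e-05) corresponds to a ratio of 0.669, just short of the fold change minimum. Ski passed that minimum with LNA Malat1 replicates 1 and 3 as 1 sample (log2 fold change -0.59). Skil, also a rapid TGF-β target, was at 490, 512 and 534 in LNA Control, against 555, 560 and 553 in LNA Malat1, slightly above every control library, without passing the test (log2 fold change 0.12, adjusted p = 0.11 by limma). The difference between the changes of Ski and Skil was not tested.

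The ID proteins are direct BMP targets that hold back differentiation by binding basic helix-loop-helix factors. Id2 was at 129, 94 and 107 normalized counts in LNA Control, against 157, 173 and 175 in LNA Malat1, higher in every library (log2 fold change 0.62, SE 0.11, limma adjusted p = 0.0013). Id3 was at 38, 34 and 40 in LNA Control, against 56, 64 and 45 in LNA Malat1, also without overlap (log2 fold change 0.54, SE 0.17, limma adjusted p = 0.031). Without LNA Control replicate 2 the change of Id2 fell under 1.5-fold (log2 fold change 0.51), and the adjusted p of Id3 was 0.1. Id3 also did not pass without LNA Malat1 replicate 1 (0.11) or replicate 2 (0.14), or under quantile normalization (0.13). With LNA Malat1 replicates 1 and 3 as 1 sample, Id3 also passed the fold change minimum (log2 fold change 0.6, limma adjusted p = 0.043). Id1, the most BMP-responsive of the family in many cells, was at 5, 3 and 3 in LNA Control, against 6, 5 and 4 in LNA Malat1 and was not tested.

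The upstream sequences of Id2 and Id3, which rose together, and of Ski, which fell, are shown from RefSeq (GRCm38.p6), each with the 250 bases before the RefSeq start of the gene. Windows of 300 bases, 250 before and 50 after the start, were found for 30 of the 42 genes and searched on both strands for GGCGCC, a palindrome known from BMP SMAD binding, for CAGACA, and for GTCTAGAC, a SMAD palindrome. Capitals mark GGCGCC. The windows are Id2 at chr12:25096093-25096342 (minus strand), Id3 at chr4:136143572-136143821 (plus strand) and Ski at chr4:155222536-155222785 (minus strand). The RefSeq starts of Id2, Id3 and Ski lie 1048, 325 and 57 bases from the starts of the genes in the deposited table, which uses the same build.
Id2: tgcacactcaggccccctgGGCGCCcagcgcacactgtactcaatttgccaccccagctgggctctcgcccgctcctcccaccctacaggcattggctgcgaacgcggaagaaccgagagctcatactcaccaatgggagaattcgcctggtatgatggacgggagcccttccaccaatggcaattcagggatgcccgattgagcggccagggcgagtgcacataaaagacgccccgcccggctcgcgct
Id3: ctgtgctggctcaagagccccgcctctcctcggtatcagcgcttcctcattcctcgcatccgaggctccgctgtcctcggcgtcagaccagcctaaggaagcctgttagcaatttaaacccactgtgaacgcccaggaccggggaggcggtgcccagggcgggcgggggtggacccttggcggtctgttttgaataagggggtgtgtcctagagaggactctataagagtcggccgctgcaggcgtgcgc
Ski: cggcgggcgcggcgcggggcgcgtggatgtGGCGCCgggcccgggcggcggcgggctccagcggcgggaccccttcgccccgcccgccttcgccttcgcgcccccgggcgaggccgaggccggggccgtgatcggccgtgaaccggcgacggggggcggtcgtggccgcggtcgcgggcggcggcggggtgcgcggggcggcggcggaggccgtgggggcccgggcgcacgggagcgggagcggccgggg

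GGCGCC began 231 bases before the start of Id2 and 220 bases before that of Ski, and the Id3 window held none of the 3 motifs. Over the 30 windows GGCGCC occurred in 9, against 11.9% of all 32851 windows of this length. Of those 9 genes, 3 rose (Bmpr2, Smurf2 and Id2), 3 fell (Bmpr1a, Smad5 and Ski) and 3 did not pass the test (Tgfbr1, Acvr1b and Smad9). Among the genes with a window, the motif was therefore found on both sides of the change. No window was found for Smad2, Tgfbr3, Tgfb3, Gdf6 or Bambi, which also passed the p threshold. CAGACA occurred in 4 windows (Tgfb2, Ltbp3, Smurf1 and Smurf2), against 21.0% of all windows, and GTCTAGAC in that of Smad6, against 0.213%. The motifs do not overlap one another in these windows. The member windows were rich in G and C, with a median of 65.65%. The G and C content of all windows was not computed, so the shares of GGCGCC are not matched for it. A match describes the letters of the window and is not a binding site.

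Levels differed widely among the genes. Of the genes tested, Fstl1 had the highest level per kilobase of exon in LNA Control, at 342 normalized counts. Next came Bmpr1a (235), Gdf6 (171), Smad4 (134) and Ski (130). The low end held Bmp4 (5.04), Bmp10 (2.90) and, lowest, Ltbp2 (0.285). Smad4 and Ski, at neighbouring places in this order, were at 120 and 87.1 in LNA Malat1. Of the 13 list genes whose mean reached 500 normalized counts, 5 were higher and 4 lower past the p threshold, whereas 8.99% and 22.7% of the 3205 such genes of the whole table were. With a mean of at least 50, 7 of 32 were higher and 7 lower, against 12.2% and 19.7% of all genes at that level. Below a mean of 50, 2 of 7 were higher (Id3 and Ltbp2) and none was lower by the limma test, against 18.5% and 2.40% of all genes. Ltbp2 was tested only because of its LNA Malat1 counts.

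**Figure D4:**
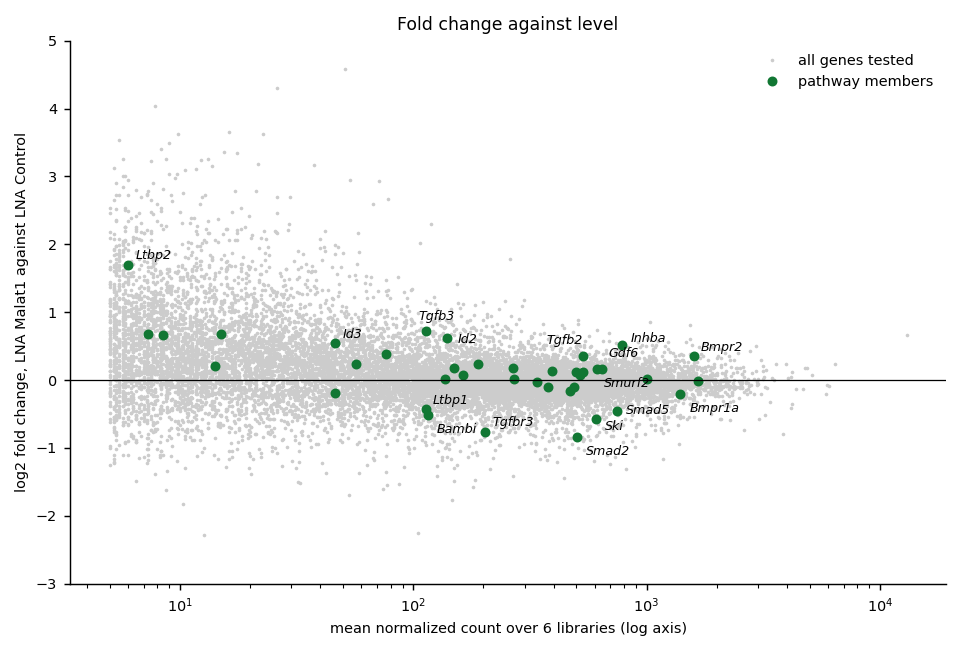
Log2 fold change (vertical axis) against the mean normalized count over the 6 libraries (horizontal log axis) for all 15650 genes tested (grey) and the 39 pathway genes (green, named where past the p threshold). Genes with means under 50 spread widely and lean upward, with a median of 0.31, and most of the named pathway genes lie above 50.

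Other genes of the pathway that were not on the list were taken from 118 further names sorted by role. Of these, 89 had a row and 80 were tested, and 11 were higher and 14 lower past the p threshold, against 14.3% and 14.0% of all genes. With the fold change minimum, 5 were upregulated and 3 downregulated, against 8.0% and 2.92%, so these shares lie near those of the whole table. Genes named in the next paragraphs with a change under 1.5-fold were chosen after their values were seen.

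Acvr1c, or ALK7, a type I receptor for activin B and Nodal-related ligands, was at 15, 12 and 17 normalized counts in LNA Control, against 63, 55 and 78 in LNA Malat1. It had the largest increase of all pathway genes called (log2 fold change 2.08, SE 0.21, limma adjusted p = 1.4e-05), and it was the only called gene of the 5 further receptors and coreceptors tested. None of the 5 further ligands passed the test at an adjusted p of 0.05 by limma. Their log2 fold changes were positive in 4 and negative in 1 (Gdf7, -0.1), so the shared sign of the ligands of the list did not extend to all of them. Itgb6, an integrin subunit that activates latent TGF-β, was at 15, 7 and 6 in LNA Control, against 24, 17 and 21 in LNA Malat1 (log2 fold change 1.16, limma adjusted p = 0.023). Bgn, a matrix proteoglycan that binds TGF-β, was at 7, 4 and 5 in LNA Control, against 11, 14 and 10 in LNA Malat1 (log2 fold change 1.01, limma adjusted p = 0.044). Both are low in count, and both lost the call with LNA Malat1 replicates 1 and 3 as 1 sample (adjusted p = 0.091 for Itgb6 and 0.086 for Bgn) and without LNA Control replicate 2 (0.083 and 0.11), LNA Control replicate 3 (0.053 and 0.063), LNA Malat1 replicate 1 (0.11 and 0.11) or LNA Malat1 replicate 3 (0.085 and 0.084). Bgn also lost it without LNA Malat1 replicate 2 (0.15). Under quantile normalization Itgb6 and Bgn lost the call as well (limma adjusted p = 0.12 and 0.22). The abundant matrix genes Fbn2 and Emilin1, which bear on the storage and processing of TGF-β, fell instead, with log2 fold changes of -0.47 and -0.46. Of the 8 further latency and processing genes tested, 1 was higher and 2 were lower past the p threshold. Of the 7 further secreted antagonists and modulators, 2 were higher (Bgn and Nbl1, the latter by 0.43 on the log2 scale) and none was lower. Over all genes 14.3% were higher and 14.0% lower.

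Of the 27 intracellular regulators tested, 7 fell and none rose by the limma test at an adjusted p of 0.05, the others not passing it. Over all genes 14.0% were lower and 14.3% higher. Among genes with a mean of at least 50, which all 27 reached, 19.7% were lower and 12.2% higher. Nedd4l, a ubiquitin ligase that acts on phosphorylated SMAD2 and SMAD3, was at 463, 469 and 444 normalized counts in LNA Control, against 277, 238 and 252 in LNA Malat1 (log2 fold change -0.84, limma adjusted p = 2.3e-06). Trim33, or TIF1γ, a chromatin-bound partner of SMAD2 and SMAD3 that also acts on SMAD4, was at 903, 941 and 971 in LNA Control, against 596, 588 and 589 in LNA Malat1 (log2 fold change -0.67, limma adjusted p = 1.8e-06). Both were far below every control library. The other 5 had smaller decreases: Ctdsp2 (-0.49), Tab1 (-0.45), Zfyve9 (-0.24), Map3k7 (-0.22) and Wwp2 (-0.20). Zfyve9, or SARA, anchors SMAD2 and SMAD3 at the receptor, and Map3k7, or TAK1, with its partner Tab1 carries the signal that does not pass through SMADs.

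Target genes of TGF-β went both ways. Of 19 tested, 5 rose and 5 fell, against 14.3% and 14.0% of all genes. Ccn2, a matricellular growth factor, was at 70, 76 and 69 normalized counts in LNA Control, against 109, 104 and 124 in LNA Malat1 (log2 fold change 0.64, limma adjusted p = 0.00094). Ccn2 fell under 1.5-fold without LNA Malat1 replicate 3 (log2 fold change 0.57). Among the smaller changes, Tgfb1i1 and Junb rose by 0.54 and 0.44 on the log2 scale. The cyclin-dependent kinase inhibitors Cdkn1a and Cdkn2b each rose by 0.35. Zeb1, Klf11 and Klf10, all transcriptional regulators, fell, as did Bhlhe40. Of the 9 BMP targets tested, 2 rose and none fell by the limma test, and the other 7 did not pass it at an adjusted p of 0.05, against 14.3% higher and 14.0% lower of all genes. Tbx3, a T-box repressor of the cardiac conduction system, was at 17, 20 and 12 in LNA Control, against 46, 42 and 53 in LNA Malat1 (log2 fold change 1.49, limma adjusted p = 0.00035), and Unc5b, a netrin receptor, had a log2 fold change of 0.50.

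Markers of cell types were read beside these results. Of 12 atrial cardiomyocyte markers 10 had a row, and their summed level was 5309 to 5589 normalized counts in LNA Control, against 5030 to 5201 in LNA Malat1. Ryr2, the largest part of that sum (2393 to 2706, against 2237 to 2387), did not pass the test. Of the 9 tested, 1 was higher (Tnnt2, log2 fold change 0.15) and 2 were lower (Gata4, -0.21, and Tbx5, -0.22) past the p threshold. Over all genes 14.3% were higher and 14.0% lower. Tnnt2, Actc1, Ryr2, Gata4, Nkx2-5 and Tbx5 were present in every library, whereas Myh6 was at or near 0 in all of them (0 to 7), and Nppa and Sln were not analysed here. Fibroblast markers (5 of 8 with a row) summed to 5304 to 5911 in LNA Control, against 4683 to 4817 in LNA Malat1, carried by Col1a1, Col3a1 and Postn while Col1a2 was at 0 or 1. Smooth muscle markers (4 of 4) summed to 2058 to 2341 and 2215 to 2281, endothelial markers (2 of 5) to 19 to 28 and 32 to 35, and macrophage markers (2 of 4) to 32 to 36 and 54 to 81. Past the p threshold, 1 of 4 fibroblast markers tested was lower (Col3a1) and 1 of 4 smooth muscle markers was higher (Cnn1). The 2 macrophage markers tested, Cd68 and Csf1r, were low in count and higher, and no endothelial marker passed. The part of these levels in the pathway results was not tested, and in bulk RNA fewer cells of a type and less RNA per cell cannot be told apart.

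**Figure D5:**
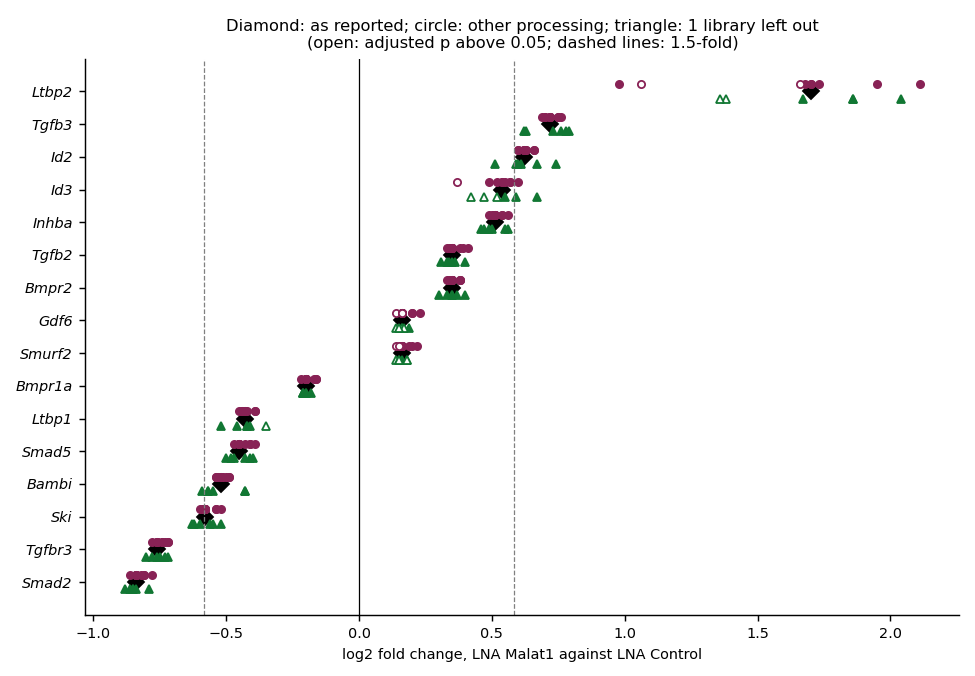
Log2 fold change (horizontal axis) of the 16 genes past the p threshold as reported (diamond), under the other processing choices (circles) and with each library left out (triangles). Open symbols did not pass an adjusted p of 0.05, and Smad2, Tgfbr3 and Tgfb3 stayed past 1.5-fold (dashed lines) in every fit, whereas Ltbp2 varied most.

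The calls of Tgfb3, Smad2 and Tgfbr3 held in each of the 6 fits that left out a library and in each of the 10 other fits with another scaling, filter, pseudocount, weighting or grouping of libraries. Their log2 fold changes ranged from 0.62 to 0.79 for Tgfb3, from -0.88 to -0.79 for Smad2 and from -0.80 to -0.72 for Tgfbr3 when a library was left out. Some reads of Tgfb3 and Tgfbr3 could belong to overlapping genes. The exons of Tgfb3 share 7.60% of their length with Gm48008 on the opposite strand, and those of Tgfbr3 share 4.54% with Gm43422 on the same strand. The library kit keeps the strand, but the strand setting of the counting is not given in the sources used here.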

How the data were processed

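Total RNA of HL-1 cells was made into stranded libraries and sequenced by the authors, who trimmed reads (Trimmomatic 0.39), aligned them to mm10 (STAR 2.7.7a), counted them per gene (featureCounts 1.6.5) and normalized the counts with DESeq2 1.30.0. The deposited values are normalized counts rounded to whole numbers and are treated as a score, not as raw counts, so no count model was run. Library factors recovered from the low values gave 4512253 to 5592464 reads per library. Groups and replicate numbers came from the sample titles.

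Log2(normalized count + 1) was tested with limma 3.58.1 in R 4.3.3, with an intensity trend, two-sided, over all genes with a mean of at least 5, and p-values were adjusted by Benjamini-Hochberg over all genes tested; fold changes are on that scale, which understates those of low genes. A call needed an adjusted p up to 0.05 together with a change of 1.5-fold or more. Levels between genes were compared per kilobase of exon (GENCODE M21). The pipeline was tested on simulated data. Named genes were Malat1, all genes of the list, and up to 4 called genes per role among the other pathway genes. The genes and lists were chosen with earlier results of these data known. Alternatives were other pseudocounts, scalings, filters, weights, fold minimums, the replicate number as a block, and the libraries left out in turn. The values of a further called gene are not reported here.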

Additional observations from a re-analysis of the deposited data

How the results depend on the processing

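The replicate block gave 3 upregulated and 2 downregulated genes of the list, the same 5 genes, and 1297 and 442 of all genes, and it changed no call of the list but ended that of Bgn (adjusted p = 0.059). Same-numbered libraries correlated in their deviations from the group means by 0.086, 0.182 and 0.083 over 10490 genes. Libraries with different numbers had -0.189 to 0.046, so every library correlated best with its own number. Whether the numbers mark a pairing was not tested. Counts of all genes against 1252 and 457 were 748 and 718 under quantile normalization, 317 upregulated at a mean of at least 50, where fewer genes were tested, 831 upregulated with LNA Malat1 replicates 1 and 3 as 1 sample, 2231 and 2195 with no fold minimum and 742 and 99 with a minimum of 2. The same settings gave 3, 1 and 3 upregulated other pathway genes for the first 3, and 11 higher and 14 lower with no fold minimum. With a minimum of 2, the list had 1 upregulated (Ltbp2) and 0 downregulated genes, and the other pathway genes 0 downregulated. With no fold minimum the list had 9 and 7. Leaving out 1 library gave 1 to 4 upregulated (only Tgfb3 without LNA Control replicate 2) and 2 to 3 downregulated genes of the list, 2 to 6 upregulated other pathway genes (3 without LNA Control replicate 2, LNA Control replicate 3 or LNA Malat1 replicate 1, and 2 without LNA Malat1 replicate 3) and 2 to 3 downregulated, and 810 to 1582 upregulated (810 without LNA Malat1 replicate 1 and 812 without replicate 3) and 406 to 475 downregulated of all genes. Malat1 ranged from -0.88 to -0.75. The cause of these shifts was not tested.

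Of 617 single-gene values over 16 settings, 557 kept direction and side of the threshold, 23 lost it, 16 gained it and 21 changed sign, all in genes that had not passed. Signs turned for Fstl1 (0.00, 0.01 and 0.02 under quantile normalization, equal totals and voom), Acvr1 (0.03, 0.01 and 0.02), Bmp10 (-0.16 under quantile normalization) and Ltbp3 (-0.00 with LNA Malat1 replicates 1 and 3 as 1 sample). With a library left out, log2 fold changes spanned -0.09 to 0.01 for Fstl1, -0.07 to 0.05 for Acvr1, -0.02 to 0.06 for Smad7, -0.04 to 0.11 for Smad6 and for Ltbp3, -0.01 to 0.18 for Bmp1, -0.02 to 0.12 for Smad3 and -0.03 to 0.41 for Bmp10. With no filter on low values Acvrl1 was also called upregulated, and median-of-ratios scaling added Ski to the downregulated genes. Among the other pathway genes, Acvr1c, Tbx3, Nedd4l and Trim33 were called in all fits run for them, whereas Bgn was not called in 10 of 15 and Itgb6 in 6 of 15. Inhbb, Bmp10 and Eng had the widest intervals among the genes that did not pass, and the part of depth in this was not tested.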
